A study of Mus musculus with 82 samples.

Results

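Olfactory receptor (OR) genes are transcribed in sensory neurons of the nose and have no known role in the self-renewal of embryonic stem (ES) cells. They were used here to ask how many reads of 3 nascent RNA assays fall on genes that are meant to be silent. The genes taken were all protein-coding genes of the GRCm38 RefSeq annotation whose symbol is Olfr, or the newer Or, followed by a number, which gave 1109 of 21774 protein-coding genes on chromosomes 1 to 19, X and Y. They lie on 17 chromosomes, with 287 on chromosome 2, 239 on chromosome 7 and 130 on chromosome 9. Most are short, with a median span of 948 bp, and 992 have 1 exon. The shortest span was 842 bp and the longest 48745 bp, and all spans together cover 1.686 Mb.

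The OR genes form the largest gene family of mammals and encode G-protein-coupled receptors that bind odorants. Each mature olfactory neuron expresses a single receptor gene from a single allele. The gene clusters are otherwise packed into constitutive heterochromatin that carries methylation of histone H3 lysine 9, deposited by enzymes such as Setdb1 and Ehmt2. The transcription factors Lhx2 and Ebf1 bind enhancers of the clusters in the neuron, where Lhx2 recruits the cofactor Ldb1, and the demethylase Kdm1a takes part in the choice.

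Nascent RNA came from V6.5 mouse ES cells grown with serum and leukaemia inhibitory factor, with no treatment, genotype or time that differed between groups. In all 3 assays, RNA polymerases extended their transcripts in isolated nuclei with propargyl-modified nucleotides, and the labelled RNA 3′ ends were joined to a DNA adaptor by click chemistry. In scGRO–seq and inAGTuC the nuclei stayed intact during the run-on and were then put into 96-well plates for the click step, 1 nucleus per well in scGRO–seq and many per well in inAGTuC. In AGTuC, a strong detergent opened the nuclei of a cell population. Each entry of the deposited lists was counted as a molecule by its unique molecular identifier (UMI), and its mapped RNA 3′ end was taken as the place of a polymerase. The counts comprise 2512 kept cells in 35 scGRO–seq libraries, summed to 10 batches with 222963 to 4919704 UMIs, 4 inAGTuC libraries with 622112 to 1461204 UMIs and 2 AGTuC libraries with 2231583 and 4755258 UMIs. Batches were the replicates of scGRO–seq. The plan took these 10 as the batches named in the study's main figure. Libraries of other scGRO–seq batches were left out of the main counts. They entered an alternative with all scGRO–seq libraries, which covered 14 batches with kept cells. Nothing in the labels tells separate cultures from repeat preparations, so that any spread or p-value below refers to these samples. The ES cell markers Pou5f1, Sox2, Nanog and 7 others had 15.3 to 97.2 times the intergenic density in scGRO–seq, and 305 to 3336 times in AGTuC. The inAGTuC library Exp261_c16 shares its molecules with a scGRO–seq list of the same name, which was left out. These lists hold 1526599 and 1526591 entries, so that the labels place nearly the same data under both assays. Exp261_c16 stood apart from the other inAGTuC libraries in having longer intergenic reads, with a median of 48 bases against 29 to 32.

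Where OR genes had many scGRO–seq reads in 1 place, the reads were short, and many mapped to the same interval. Shown are the 3 most crowded antisense sites and both sense sites with at least 10 UMIs in 50 bp. Each line gives 60 bases of GRCm38 in the direction of the RNA, and the capitals mark the interval to which most reads of the stack mapped.
Olfr746 antisense, chr14:50653780-50653839, minus strand: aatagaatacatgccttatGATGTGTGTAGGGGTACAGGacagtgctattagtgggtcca
Olfr828 antisense, chr9:18815868-18815927, plus strand: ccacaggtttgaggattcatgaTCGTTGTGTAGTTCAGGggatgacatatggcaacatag
Olfr640 antisense, chr7:104021564-104021623, plus strand: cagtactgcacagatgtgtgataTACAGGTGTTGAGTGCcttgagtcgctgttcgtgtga
Olfr1087 sense, chr2:86690879-86690938, minus strand: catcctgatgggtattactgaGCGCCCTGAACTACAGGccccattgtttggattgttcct
Olfr1320 sense, chrX:49683622-49683681, plus strand: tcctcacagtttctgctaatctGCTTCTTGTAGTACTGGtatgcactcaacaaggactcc

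All 5 lie in the single exon of their gene, and each capitalised interval occurs once in the genome. The Olfr746 stack held 74 UMIs from 69 cells, of which 68 UMIs came from batch Exp260b, and no read in it mapped with 30 bases or more. The Olfr828 stack held 20 UMIs and the Olfr640 stack 16, with 17 of the former from Exp236 and all of the latter from Exp260b. The sense stacks on Olfr1087 and Olfr1320 held 13 and 12 UMIs, all from Exp236. Over all OR genes, 8 windows of 50 bp on either strand held at least 10 UMIs, and together they held 8.15% of the OR UMIs of scGRO–seq. The windows not printed are a second one on Olfr746, next to the first, and antisense windows of 13 UMIs each on Olfr771 and Olfr607. The letters TACAGG stand in the most frequent interval of 4 of the 8 windows, both on Olfr746 included, and not in those of Olfr771 and Olfr607. Such windows were 8 of 65222 on OR genes and 8923 of 38917682 in intergenic space, where they held 30.9% of UMIs.

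Reads on OR genes were few on both strands in every assay. In scGRO–seq there were 824 sense and 1300 antisense UMIs on the 1109 genes, out of 11593347. inAGTuC had 367 sense and 616 antisense UMIs of 4354751, and AGTuC 56 sense and 342 antisense UMIs of 6986841. In scGRO–seq, 727 genes had no sense UMI, 220 had 1 and 162 had more, while 619 had no antisense UMI. The histogram of UMIs per gene shows 13 genes with 10 or more sense UMIs and 16 with 10 or more antisense UMIs. No UMI on either strand was found on 451 genes in scGRO–seq, 605 in inAGTuC and 1061 in AGTuC, and 287 genes had none in any assay. At 11593347 UMIs, a gene with no count may still have up to 3 counts, so that a 0 here is a limit of depth.

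**Figure D1:**
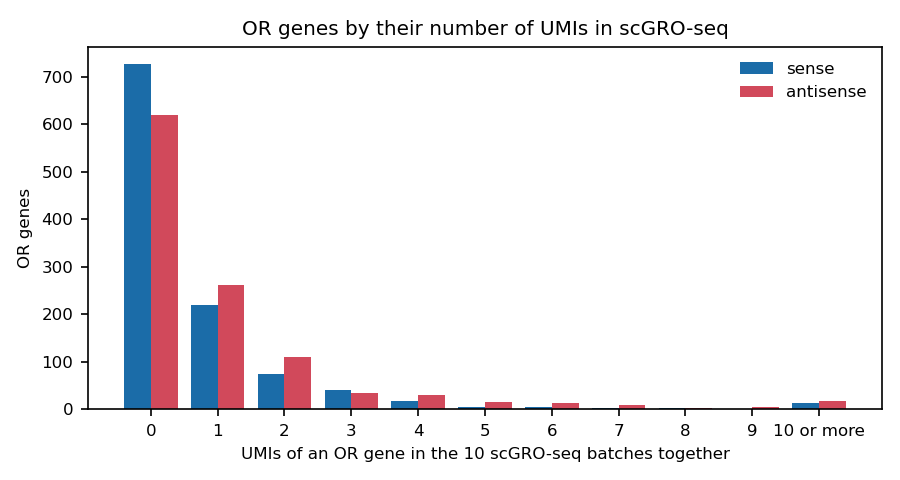
Number of OR genes (vertical axis) by their number of UMIs in the 10 scGRO–seq batches together (horizontal axis), for sense and antisense reads, with genes of 10 or more UMIs in the last pair of bars. Of 1109 genes, 727 had no sense UMI and 619 no antisense UMI.

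To set these numbers against the rest of the genome, UMIs were divided by the length of the spans and by the UMIs of the sample, and are given as UMIs per Mb per 1000000 UMIs. Intergenic space was all sequence at least 10 kb from any gene, 973.7 Mb, taken per strand. OR sense density in the 10 scGRO–seq batches was 45.2 ± 24.2 (SD, n = 10), with the lowest value of 15.96 in Exp156, a median of 39.5 and the highest value of 97.2 in Exp160. Intergenic density over the same batches was 74.2 ± 25.5, and ranged from 24.9 in Exp156 to 110 in Exp211. Other protein-coding genes of 1 to 20 kb, 10182 in all, had a sense density of 647 to 1718. Every batch of these genes lay above every batch of OR genes.

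**Figure D2:**
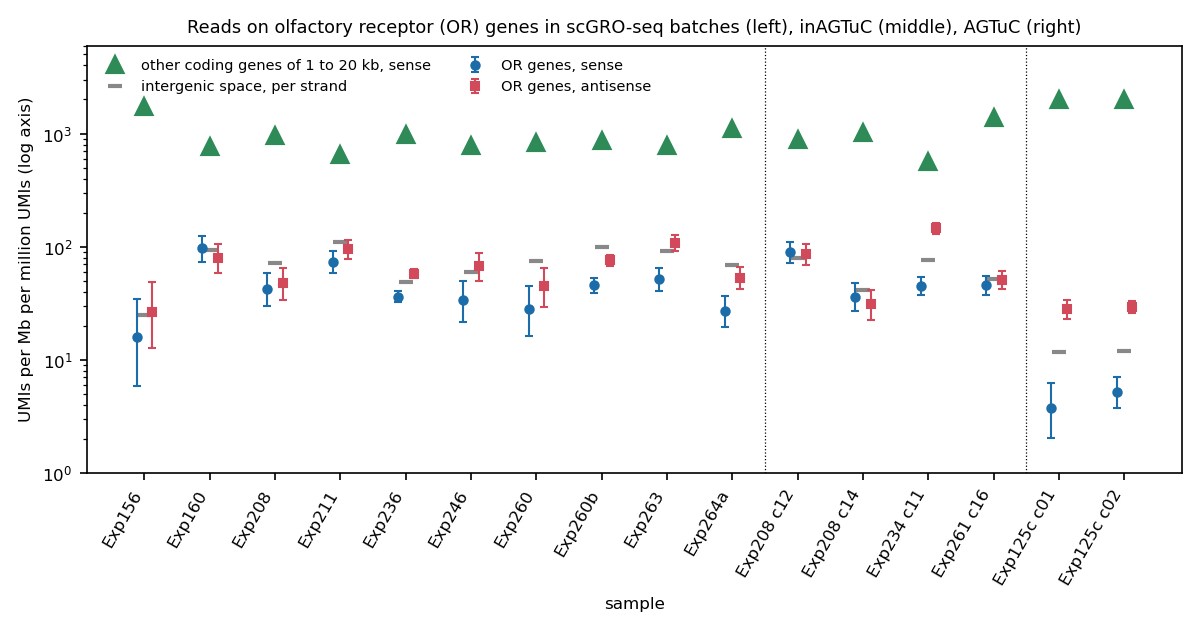
UMIs per Mb per 1000000 UMIs (log axis) in each sample on OR genes in the sense and antisense direction, in intergenic space and on other protein-coding genes of 1 to 20 kb. Bars on the OR points are 95% exact Poisson intervals of the UMI count. OR sense density lies below other genes in every sample, and below intergenic space in 9 of 10 scGRO–seq batches.

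OR sense density was 60.5% ± 19.5 of intergenic density in scGRO–seq (SD, n = 10). The lowest batch was Exp260 with 37.6%, the median was 57.9% and the highest was Exp160 with 105%. It was below intergenic density in 9 of 10 batches and in 34 of 35 single libraries. The windows of at least 10 UMIs described above held 30.9% of intergenic UMIs but 25 of the 824 OR sense UMIs. The ratio without these windows was not computed. In inAGTuC the libraries had 112%, 87.1%, 58.9% and 88.6%, a mean of 86.7% ± 21.8 (SD, n = 4), and 3 of 4 lay below 100%. Without Exp261_c16 the inAGTuC mean was 86.1%. In AGTuC the 2 libraries had 32% and 43.3%. These are scores over a chosen set of genes, so they carry no p-value. The batch Exp208, which holds scGRO–seq and inAGTuC libraries, had 59.8% in single nuclei and 99.6% as the mean of 2 inAGTuC libraries.

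The choice of background mattered most in AGTuC. Its intergenic density was 11.9 ± 0.33 (SD, n = 2) at 10 kb from genes and 3.58 ± 0.18 at 50 kb, while scGRO–seq kept 64.6 ± 24.3 of its 74.2. Against the space at 50 kb, OR sense density in AGTuC was 125% of the background, and in inAGTuC 112%, against 72.1% in scGRO–seq. Against the intergenic space inside OR clusters, 20.42 Mb in all, it was 70.3% in scGRO–seq, 93.3% in inAGTuC and 71.4% in AGTuC. In absolute terms, OR sense density was 3.72 and 5.24 in the AGTuC libraries, below all scGRO–seq batches and all inAGTuC libraries, of which the lowest had 15.96 and 36.2. Other protein-coding genes had 7.84 to 108 times the OR sense density in scGRO–seq batches, 9.71 to 29.7 times in inAGTuC libraries, and 534 and 377 times in AGTuC libraries.

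Other chemoreceptor families were set beside the OR genes in scGRO–seq. The vomeronasal receptors Vmn2r, 122 genes, had 43.4% ± 12.4 of the intergenic density in sense direction (SD, n = 10), with 26.5% to 64.4% over the batches, and lay below the OR genes in 8 of 10 batches. The Vmn1r family, 228 genes, had 46.2% ± 35.3, with 13.6% to 131% on 1 to 35 UMIs per batch, and was likewise lower in 8 of 10. These differences were not tested. Bitter taste receptors (Tas2r, 35 genes) and trace amine receptors (Taar, 15 genes) had at most 8 and 2 sense UMIs in a batch and were not compared further.

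The reads on OR genes were also short. In scGRO–seq the median mapped length was 19 bases for OR sense reads, 20 for OR antisense reads and 19 for intergenic reads, against 49 for sense reads on other genes. Reads under 30 bases made up 73.5% of OR sense, 71.9% of OR antisense and 71.8% of intergenic UMIs, and 21.4% on other genes. In inAGTuC the medians were 37, 36, 34 and 48 bases in the same order, and in AGTuC 55.5, 68.5, 53 and 58 bases. The length differed among batches. In Exp156 and Exp160 the median OR sense read had 58 bases, and in Exp211 and Exp260b 18 bases.

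**Figure D3:**
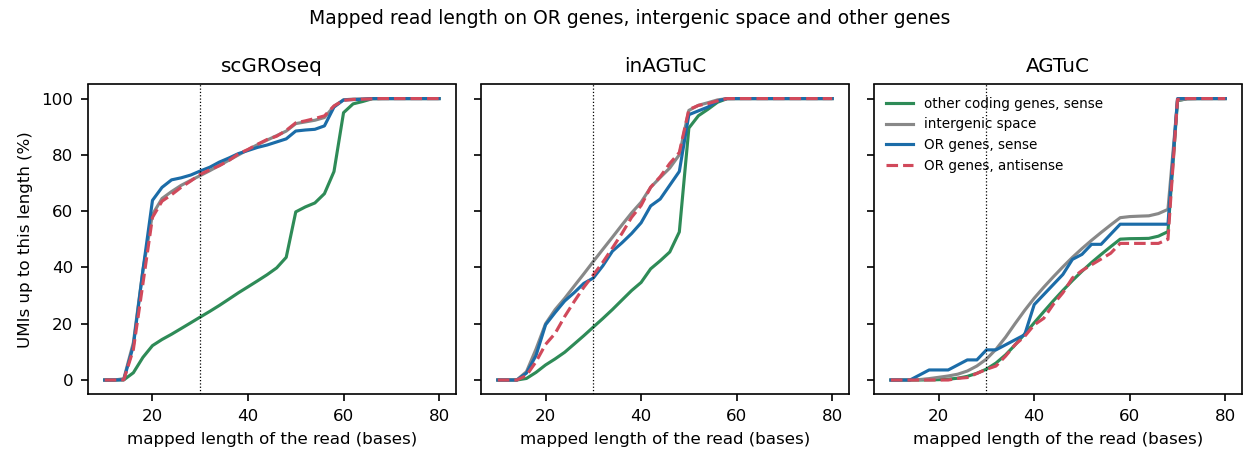
Percent of UMIs up to a given mapped length in bases, for OR genes in both directions, intergenic space and other protein-coding genes of 1 to 20 kb, with the samples of each assay summed; the dotted line marks 30 bases. In scGRO–seq the OR and intergenic curves run together and reach over 70% before 30 bases, while other genes reach 21.4%.

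Leaving out reads under 30 bases left 218 sense and 365 antisense UMIs on OR genes in scGRO–seq. OR sense density was then 59.1% of the intergenic density of such reads, with 19.7% to 106% over batches. Reads under 30 bases alone gave 70.7% in Exp211, 88.4% in Exp236 and 44.3% in Exp260b, the 3 batches with most OR sense UMIs. Part of the short reads may map to more than 1 place. A mapping quality under 10 was seen in 15.4% of OR sense, 16.7% of OR antisense, 15.9% of intergenic and 18.5% of other sense UMIs. Of all 18-base words on OR spans, 50.8% occur once in the genome, against 47.5% in intergenic space and 63.97% on other genes, and for 31-base words the shares were 78.2%, 72.8% and 87.4%.

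Bases at the RNA 3′ end were recorded as well, since 1 version of the click adaptor carries ACAGG after the azide-modified T at its 5′ end. The libraries made with it are not given in the sources used here. The last 6 bases of the mapped RNA were TACAGG, with up to 2 mismatches, in 19.7% of OR sense, 20.6% of OR antisense and 22.9% of intergenic UMIs of scGRO–seq, and in 14.2% of sense UMIs on other genes. Of all possible 3′ ends, 3.82% in intergenic space, 3.44% on the OR sense strand and 4.57% on the OR antisense strand match these letters. The share was 48.4% for OR sense UMIs in Exp260b and 14.6% in Exp236. In AGTuC it was 1.21% in intergenic space. The UMI equalled the reverse complement of the 5 genomic bases after the RNA 3′ end in 16.1% of OR sense, 28.4% of OR antisense, 15.5% of intergenic and 24.2% of other sense UMIs of scGRO–seq. In inAGTuC these shares were 54.2%, 68.5%, 54.1% and 39.8%, and in AGTuC 1.79%, 2.05%, 1.11% and 1.03%. In inAGTuC library Exp234_c11 they were 78.38%, 87.15%, 81.12% and 76.04%. Whether such UMIs count molecules, and whether such ends are RNA 3′ ends, was not tested. The part of these reads in the levels above was not tested, apart from weighting intergenic density to the 6 end bases on OR spans, which gave 60.3% for OR sense in scGRO–seq.

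Antisense reads outnumbered sense reads on OR genes. The log2 ratio of sense over antisense UMIs was −0.61 ± 0.42 in scGRO–seq (SD, n = 10) and below 0 in 9 of 10 batches, with Exp160 at 0.30. Among the 35 libraries, 32 had more antisense than sense UMIs. The crowded windows of scGRO–seq held 148 antisense and 25 sense UMIs on OR genes. UMIs equal to the reverse complement of the genomic bases after the RNA 3′ end made up 28.4% of antisense and 16.1% of sense UMIs. The part of either in the strand difference was not tested. In AGTuC the ratios were −2.92 and −2.49. In inAGTuC they were 0.06, 0.22, −1.69 and −0.16, and only Exp234_c11 lay far from 0. That library had as many antisense as sense UMIs on other genes, with densities of 566 and 556, whereas antisense reads on other genes were fewer than sense reads in the other 3 libraries. Antisense density on OR genes was 90.8% ± 21.6 of intergenic density in scGRO–seq, 118% ± 50.1 in inAGTuC and 243% ± 0.75 in AGTuC. The AGTuC value turned with the background, to 37.6% with intergenic space from 0 kb and 806% from 50 kb, and was 40.1% on OR bases at least 10 kb from other genes. Vmn2r genes also had more antisense than sense reads in scGRO–seq, with mean densities of 43.8 ± 19.1 and 31.9 ± 13.8 (SD, n = 10). Vmn1r genes had 27.1 ± 15.9 and 29.7 ± 17.8.

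Gene by gene, sense and antisense UMIs were compared within batches with limma on all genes with at least 10 UMIs on both strands together. Of 17902 genes tested, 48.3% were called with more sense reads and 1.79% with more antisense reads at an adjusted p under 0.05. The filter left 40 OR genes, of which 0 were called for sense and 4 for antisense. The filter takes no direction, but all 4 passed it by their antisense reads, so that their calls and p-values are given as a description. At an unadjusted p under 0.05 there were 7, of which 1 was for sense. Without Exp160, 1 gene was called for sense and 4 for antisense. The 40 had a median log2 ratio of −0.14, against 0.88 over all genes tested. The number of antisense calls was 1 without Exp236 and 2 without Exp263 or without Exp264a.

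Olfr986 (chr9:40187079-40188094, plus strand, 1 exon) had the smallest adjusted p. It had 33 antisense UMIs, with 1, 0, 5, 2, 17, 0, 1, 4, 2 and 1 in Exp156, Exp160, Exp208, Exp211, Exp236, Exp246, Exp260, Exp260b, Exp263 and Exp264a, and 2 sense UMIs, both in Exp236. Antisense was higher in 8 batches and sense in 0, and the log2 ratio was −1.88 ± 0.42 (SE), with a limma adjusted p of 0.00048. Of the antisense UMIs, 27 mapped with at least 30 bases. The gene also had 14 antisense UMIs in inAGTuC and 17 and 38 in the AGTuC libraries. It was the only OR gene still called with reads of at least 30 bases.

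Olfr986 is 1 of 8 OR genes within 10 kb of an active gene, as defined further on. It ends 4222 bp before the start of Zfp202, a zinc finger gene on the same strand with 373 UMIs in scGRO–seq, so that antisense reads of Olfr986 run away from the Zfp202 start. In the 5 kb before that start, the strand opposite to Zfp202 held 165 UMIs in scGRO–seq, 40.5 times the intergenic density, and 254 in AGTuC, 609 times. From 10 to 15 kb these were 165 and 59 UMIs, and from 35 to 40 kb still 48 and 24. Reads on that strand were thus found before and past the OR gene in both assays.

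The other OR genes called were Olfr923, Olfr746 and Olfr544. Olfr923 (chr9:38827615-38828682) had 11 antisense and 0 sense UMIs, 7 of the 11 in Exp236, and an adjusted p of 0.025. Olfr746 had 86 antisense and 0 sense UMIs, of which 77 in Exp260b are mostly the stack printed above, and an adjusted p of 0.029. Olfr544 (chr7:102484114-102488307) had 14 antisense and 3 sense UMIs and an adjusted p of 0.041, and antisense was higher in 5 batches and sense in 0. Olfr544 lies 14343 bp past the end of Rrm1, a subunit of ribonucleotide reductase, on the other strand.

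Clear reads were defined by size, as at least 10 UMIs in at least 5 of 10 batches at 2 times the intergenic density or more. On other protein-coding genes of 1 to 20 kb, 6111 of 10182 (60%) met this rule for sense and 51.4% for antisense reads. Of the 1109 OR genes, 2 met it for sense and 4 for antisense, and none for both. Most OR genes could hardly meet it, as a span of median length would hold 0.773 UMIs at intergenic density. The sense genes were Olfr1358 and Olfr330, and the antisense genes Olfr986, Olfr544, Olfr923 and Olfr982. The most crowded 50 bp windows of the sense genes held 6 of 15 and 6 of 13 sense UMIs. Those of the antisense genes held, in the order named, 8 of 33, 1 of 14, 3 of 11 and 5 of 10 antisense UMIs. All 6 genes lie within 200 kb of an active gene, Olfr330 at 198590 bp. Of all 1109 OR genes, 8 lie within 10 kb of one, 53 at 10 to 50 kb and 245 at 50 to 200 kb. Whether clear reads go with such neighbours was not tested. With reads of at least 30 bases the rule left 0 sense genes and 1 antisense gene, and without Exp236, Exp260b or Exp263 likewise 0 and 1. More antisense genes met it with all barcodes or with shared molecules counted, as given in the last section. Without Exp264a the counts were 1 and 1.

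Olfr1358 (chr10:78517428-78521283, plus strand, 2 exons) had 15 sense UMIs, with 1, 1, 7, 4 and 2 in Exp208, Exp211, Exp236, Exp260b and Exp263 and 0 in the other 5 batches. This was 4.77 times the intergenic density per strand. The reads had a median of 20 bases and 5 had at least 30 bases. inAGTuC and AGTuC had 0 sense UMIs on it, and AGTuC had 4 antisense UMIs. The non-coding gene Gm47944 overlaps its start on the other strand. Its nearest other protein-coding genes are Pdxk, a kinase of vitamin B6, 52480 bp away, and Ilvbl, 53217 bp away, with 152 and 60 sense UMIs.

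Olfr330 (chr11:58528929-58534825, minus strand, 2 exons) had 13 sense UMIs, with 5, 1, 3, 2 and 2 in Exp236, Exp246, Exp260b, Exp263 and Exp264a. This was 2.71 times the intergenic density. A single read had at least 30 bases, and inAGTuC and AGTuC had 1 and 0 sense UMIs. The neighbours Lypd9 and 2210407C18Rik, 75963 and 73379 bp away, had 3 and 6 sense UMIs. The log2 ratio of sense over antisense was 0.79 ± 0.40 (SE) for Olfr330 and 0.94 ± 0.43 for Olfr1358, with limma adjusted p-values of 0.10 and 0.071.

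Olfr982 (chr9:40074297-40075262) had 10 antisense UMIs in 5 batches, with 4 in Exp236 and 3 in Exp260b, none of them of at least 30 bases. Olfr922 (chr9:38815408-38816539), the gene before Olfr923 on the same strand, did not meet the rule, with 16 antisense UMIs in 2 batches, but 15 of these had at least 30 bases. Exp236 held 14 of the 16. By UMIs per kb, the highest sense level in scGRO–seq was 14.9 on Olfr1087, 12.5 on Olfr1320 and 10.6 on Olfr547, and each had nearly all its reads in 1 batch. The 10 genes with most sense UMIs held 16.1% of all OR sense UMIs.

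The 4 OR genes over 20 kb long had densities below that of intergenic space. Olfr687 (48745 bp) had 17 sense UMIs and 27 antisense UMIs, 0.43 and 0.68 times the intergenic density. Olfr1033, Olfr872 and Olfr18 had 0.41, 0.52 and 0.50 times the intergenic density in sense direction. Their sense reads came from 5 to 8 batches each.

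Distance to an active gene went with the antisense level. Active genes were other protein-coding genes with at least 100 UMIs in scGRO–seq and at least 5 times the intergenic density, 6573 in all. No OR gene overlapped another protein-coding gene. Of the 1109 genes, 8 lay within 10 kb of an active gene, 53 at 10 to 50 kb, 245 at 50 to 200 kb and 803 farther away. All classes were set against the same intergenic space, which leaves out sequence within 10 kb of any gene. No background was matched for distance. Whether sequence outside OR genes at these distances has like levels was thus not tested. In scGRO–seq, antisense density was 655%, 228%, 129% and 66.04% of intergenic density in these classes, while sense density was 109%, 87.0%, 69.4% and 53.8%. Sense density did not fall steadily in inAGTuC, with 65.8%, 232%, 94.8% and 64.8%, or in AGTuC, with 107%, 32.7%, 114% and 8.49%. In inAGTuC, antisense density was 691%, 247%, 182% and 103%. In AGTuC, antisense density was 11943%, 1845%, 244% and 22.3%, on 112, 113, 96 and 21 UMIs. Single genes held much of this. Without the gene with most antisense UMIs in each class, which were Olfr986, Olfr1414, Olfr746 and Olfr828 in scGRO–seq, the values were 324%, 212%, 107% and 63.8%. In AGTuC these genes were Olfr986, Olfr90, Olfr94 and Olfr27, and the values without them were 6683%, 895%, 73.8% and 17.2%. Beyond 200 kb, AGTuC had 8 sense and 21 antisense UMIs on 803 genes, 8.49% and 22.3% of the intergenic density. There, scGRO–seq had 495 sense and 608 antisense UMIs, and its log2 ratio was −0.35 ± 0.77 (SD, n = 10), against −0.61 ± 0.42 over all OR genes. That of AGTuC was −1.38 against −2.71.

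**Figure D4:**
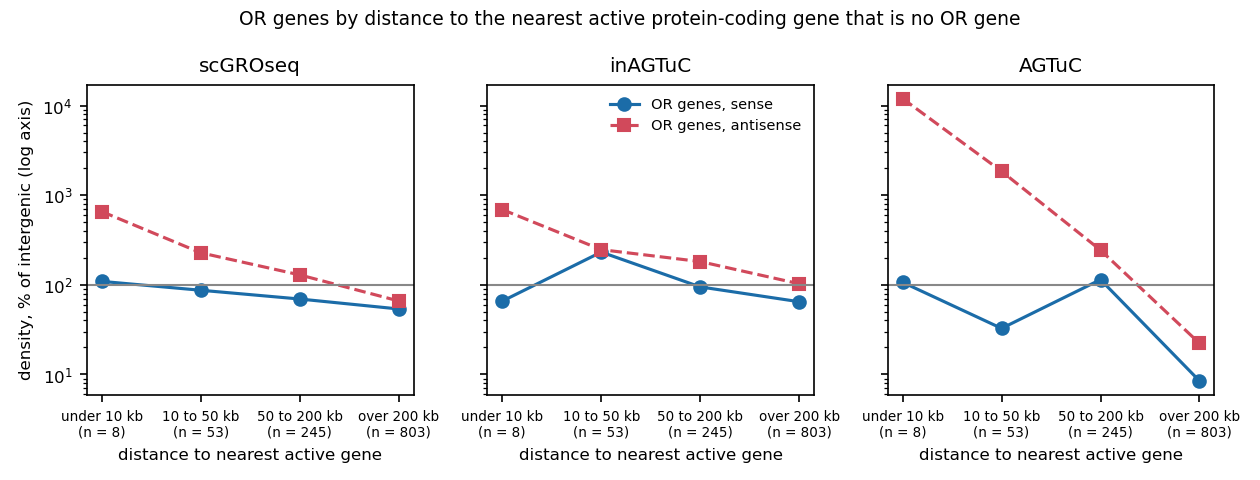
Density on OR genes as percent of intergenic density (log axis) by distance to the nearest active gene, for sense and antisense reads of each assay with samples summed; the grey line marks 100% and n is the number of OR genes. Antisense density falls from 11943% to 22.3% in AGTuC and from 655% to 66.04% in scGRO–seq, and Olfr986 holds 33 of the 60 scGRO–seq UMIs of the nearest class.

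The orientation of the neighbour was also recorded for the 61 OR genes within 50 kb of an active gene. Of these, 20 lie past the end of the active gene on the other strand, and these held 161 of the 225 antisense UMIs that AGTuC had on the 61 genes. Olfr90, Olfr692 and Olfr91 had 131 of the 161. Another 31 lie before its start, with 64 antisense UMIs, of which 55 were on Olfr986 and 9 on the other 30 genes. The remaining 10 lie past the end on the same strand, with 0 antisense and 2 sense UMIs. In scGRO–seq the antisense densities of the 3 classes were 278%, 325% and 220% of intergenic density.

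The clearest case was the chromosome 17 cluster next to Gabbr1, a subunit of the receptor for the transmitter GABA, which had 784 UMIs in scGRO–seq and 1199 in AGTuC. Olfr90, Olfr91 and Olfr92 lie on the other strand past its end, Olfr90 at 10886 bp and Olfr91 at 18629 bp. On the strand of Gabbr1, AGTuC had 364 UMIs in the first 5 kb past the end, 644 in the next, then 118, 56, 12, 4, 7 and 8 up to 40 kb, the last over Olfr92. In scGRO–seq the same windows held 127, 78, 20, 9, 7, 1, 1 and 3 UMIs. Between 40 and 115 kb AGTuC had 1 UMI on that strand. Olfr90 had 59 antisense UMIs in AGTuC, 19 and 40 in the 2 libraries, and 3 in scGRO–seq. Olfr91 had 30 antisense UMIs in AGTuC, 10 and 20 by library, and 4 in scGRO–seq. Neither had a sense UMI in AGTuC or scGRO–seq, and inAGTuC had 5 on Olfr90. RefSeq places the non-coding gene Gm41579 over Olfr91 on the strand of Gabbr1, so that reads of both cannot be told apart there.

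**Figure D5:**
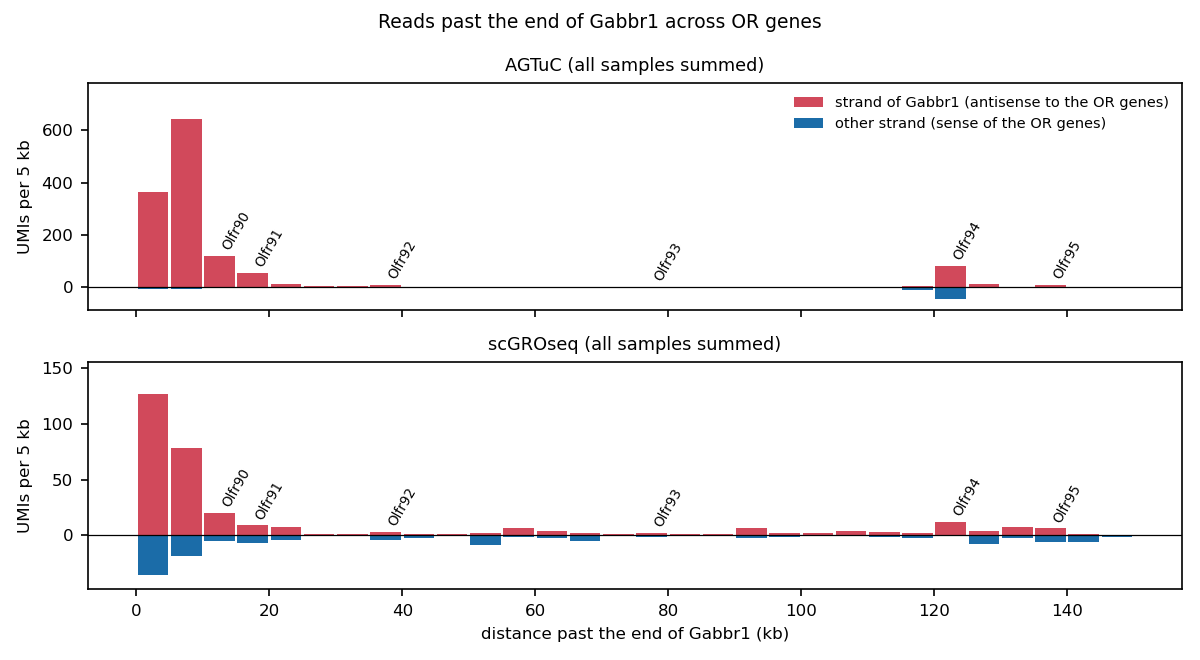
UMIs per 5 kb window past the end of Gabbr1 in AGTuC and scGRO–seq, with reads on the strand of Gabbr1 drawn upward and reads on the other strand downward, and OR genes named at their windows. AGTuC falls from 644 UMIs at 5 to 10 kb to 4 at 25 to 30 kb, has 7 and 8 in the next windows and at most 1 from 40 to 115 kb, and reads on both strands stand at Olfr94.

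Olfr94, in the same cluster, differed from these in having reads on both strands. It lies 122501 bp past Gabbr1 and 705 bp from Ubd, a ubiquitin-like gene with 1 UMI in AGTuC. Its sense UMIs were 3 and 28 in the AGTuC libraries, 1 in inAGTuC and 0 in scGRO–seq, and its antisense UMIs were 19 and 48, 1 and 6. It held 31 of the 56 OR sense UMIs of AGTuC. By UMIs per 1000000 its sense level was at least 17.1-fold higher in AGTuC than in scGRO–seq, where the bound rests on 3 counts over the 10 batches. It rests mostly on Exp125c_c02, since the 3 UMIs of Exp125c_c01 alone are 5.2 times the level of those 3 counts. The next gene, Olfr95, had 3 sense and 8 antisense UMIs in AGTuC.

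Olfr692 and Olfr70 were the other OR genes with at least 10 UMIs in AGTuC. Olfr692 lies 1894 bp past the end of Fam160a2 on the other strand and had 14 and 28 antisense UMIs and 0 sense UMIs. On the strand of Fam160a2, AGTuC had 105 UMIs in the first 5 kb past its end and 7 in the next. Olfr70 lies 2332 bp from Tmem8b and had 1 and 9 antisense UMIs. Past Rrm1, AGTuC had 91, 30, 12 and 4 UMIs in successive 5 kb windows, across Olfr543 and Olfr544. In all, 10 OR genes held 85.1% of the antisense UMIs of AGTuC, while in scGRO–seq the 10 highest held 20.7%.

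Sense levels were compared between assays with limma voom on all protein-coding genes with at least 10 sense UMIs over the 16 samples, 17769 in all. The 3 comparisons share samples. In AGTuC against scGRO–seq, 39.8% of genes were called higher and 21.9% lower at an adjusted p under 0.05. The filter left 20 OR genes, most of them through scGRO–seq reads and Olfr94 through AGTuC reads, so that no inference rests on their calls. Of the 20, 17 were called lower in AGTuC and Olfr94 higher. The fit adds a constant to each count before scaling to the total, so that a 0 scores lower in a deeper sample. Calls that rest on 0 UMIs in AGTuC thus depend in part on depth. Of the 17, 16 had no UMI in AGTuC and 8 to 17 in scGRO–seq, and the sense reads of Olfr1087 and Olfr1320 all came from Exp236. Quantile normalization ended all of the 17 calls. Without AGTuC library Exp125c_c02, 3 genes were called lower, and Olfr94, with 4 UMIs left, no longer passed the filter. With a mapping quality of at least 30 no OR gene was called higher. Both AGTuC libraries are of batch Exp125c, which holds no other assay, so that batch and assay cannot be told apart here. With the batch as a random block, 12 OR genes were called lower and 1 higher, beside 3037 lower and 5484 higher of all 17769 genes.

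In AGTuC against inAGTuC, 26.3% of genes were called higher and 19.3% lower. Of the same 20 OR genes, Olfr94 was called higher and 11 lower, and quantile normalization left 1 gene called higher. Olfr1358, Olfr1087, Olfr1320 and Olfr547 had no sense UMI in either assay, and yet each had a log2 difference of −1.676. With the batch as a random block, 6 OR genes were called lower and 1 higher, beside 2286 lower and 3346 higher of all 17769 genes. Without Exp125c_c02, the median log2 difference of the 18 OR genes left was −2.265. Without inAGTuC library Exp234_c11, 9 were called lower and 0 higher. With the mapping quality no OR gene was called higher here either. In inAGTuC against scGRO–seq, limma called 0 of 17769 genes in either direction, a share of 0, and so 0 OR genes. At an unadjusted p under 0.05 there were 2 OR genes, both lower in inAGTuC. These were Olfr1358 and Olfr330, with adjusted p-values of 0.96. Without Exp261_c16 the fit called 23 genes, with 10 higher and 13 lower in inAGTuC, and 0 OR genes.

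OR genes form clusters, defined here as at least 5 genes with gaps of up to 500 kb. There were 33 clusters with 1070 genes. Sense density in scGRO–seq was below intergenic density in 29 of them and antisense UMIs outnumbered sense UMIs in 23. The largest, on chromosome 2 from Olfr987 to Olfr1274, has 222 genes and had 113 sense and 100 antisense UMIs, 45.8% and 40.5% of intergenic density. Its 95% exact Poisson interval for sense was 37.7% to 55.03%, and in AGTuC it had 1 sense and 0 antisense UMIs. The densest in sense was the small cluster of 5 genes on chromosome X from Olfr1320 to Olfr1324, with 410%, where 12 of 16 UMIs were the Olfr1320 stack and all 16 came from 1 batch. The cluster of 8 genes on chromosome 16 from Olfr164 to Olfr171 had 0 sense UMIs in scGRO–seq, for which 3 counts allow up to 48.84% of the intergenic density. It had 3 sense UMIs in inAGTuC, 147% of intergenic density, and 0 in AGTuC. The chromosome 9 cluster from Olfr160 to Olfr986 had more antisense than sense UMIs in all 10 batches, 230 against 86.

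In single cells, 1183 of 2512 kept cells (47.1%) had an OR UMI on either strand, with at most 17 in a cell, and 619 (24.6%) had a sense UMI. Cells with an OR UMI had a median of 4522 UMIs in all, and cells without one had 2856. These shares were not read as expression of OR genes. The densities above are pooled over cells, so they cannot show what single cells express, and this was not tested.

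Genes that work with odorant receptors were described from lists of known members. Of 13 genes for signalling and receptor transport in the olfactory neuron, 8 had at least 2 times the intergenic density in scGRO–seq, 9 in inAGTuC and 6 in AGTuC. Over all 21774 protein-coding genes, 65.7%, 71.9% and 68.4% did. Ric8b, an exchange factor for the olfactory G protein that is also used in other cells, had 10.2 times in scGRO–seq, 10.7 times in inAGTuC and 110 times in AGTuC, the highest of the list in the first and last. The neuron's marker Omp had 2.94, 14.2 and 80.3 times, on 5, 8 and 14 UMIs, and was the highest of the list in inAGTuC. Counts cover whole spans, so that they include reads of any gene that overlaps a listed gene on the same strand. The channel subunits Cnga2 and Cnga4 and the transport proteins Rtp1 and Rtp2 had 1, 0, 0 and 0 UMIs in AGTuC and 1.27 to 2.06 times the intergenic density in scGRO–seq. Of 12 genes for receptor choice and silencing, 11, 12 and 10 reached 2 times the intergenic density in the 3 assays. The corepressor Trim28 had 125 times and the methyltransferase Setdb1 31.8 times in scGRO–seq, with UMIs in 10 of 10 batches. Of the factors that act at the enhancers, Ldb1 had 29.9 times, Ebf1 4.58 times and Lhx2 2.22 times in scGRO–seq, and 660 times, 1.20 times and 9.05 times in AGTuC. Emx2 was the lowest of the list in scGRO–seq, with 1.47 times.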

How the data were processed

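Each library's file lists mapped reads. Per the methods, adaptors were trimmed, reads were split by cell barcode and filtered against ribosomal sequence, the rest were mapped to mm10 (GRCm38), and duplicates were removed by UMI. The deposited score of each entry is its mapping quality, and it was used only as a filter. Cutadapt, Bowtie2 and UMI-tools are named in the submitters' processing notes.

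Entries were counted at the RNA 3′ end, on the strand opposite to the entry, over gene spans of RefSeq. Kept cells had at least 1000 UMIs and 750 genes, in libraries with at least 24 such cells. Molecules found in more than 1 library were left out with all their copies. The loss was uneven, with 793106 of 1914285 entries in scGRO–seq library Exp236_c05 and 20761 of 723810 in Exp260b_c16. Levels are UMIs per Mb per 1000000 UMIs of the sample, with 95% exact Poisson intervals that cover counting error only.

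Fits used limma 3.58.1 in R 4.3.3 with Benjamini-Hochberg adjustment over all genes tested. The fit of sense against antisense took log2 ratios with 0.5 added to each count, and its variance trend ran over the total UMIs of a gene. Whether either fit recovers differences at the low UMI counts of most OR genes, or without UMIs in AGTuC, was not tested. The other steps used Python 3.11.15 with numpy 2.4.6 and pandas 2.3.3, and matplotlib 3.10.9 for figures.

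OR genes, their rule and the gene lists were chosen with earlier results of these data known. Named were OR genes with clear reads, up to 10 called in the fits, the 5 with most antisense UMIs per kb, their nearest other genes, the largest, densest and least dense clusters, and genes of the lists. Olfr687, Olfr1033, Olfr872, Olfr18, Olfr547, the other genes with reads in AGTuC and those with stacks of reads were chosen after their values were seen. Alternatives changed cells, libraries, reads, background, OR bases, thresholds, normalization and the samples left out. Libraries of scGRO–seq batches outside the 10 were counted only in the alternative with all scGRO–seq libraries. File types other than those named in the report were not analysed here.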

Additional observations from a re-analysis of the deposited data

Results flagged for a closer look

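In groups of 4 to 10 samples, 22 sets of values were searched for a sample far from the others, and 4 had one, where chance gives about 1 in 20. Sense density on other protein-coding genes was 1718 UMIs per Mb per 1000000 UMIs in Exp156, and the next of the 10 scGRO–seq batches had 1102. Olfr544 had 11.1 antisense UMIs per 1000000 in Exp160, from 4 UMIs, and the next batch had 1.24. Olfr986 had 9.98 antisense UMIs per 1000000 in Exp208, from 5 UMIs, and the next batch had 4.49. Olfr982 had 2.79 antisense UMIs per 1000000 in Exp260, from 1 UMI, and the next batch had 1.24.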

How the results depend on the processing

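OR sense density in scGRO–seq stayed within 1 SD of 60.5% of intergenic density under all 15 alternatives, and 55.6% to 63.1% with a batch left out. No alternative left out the crowded windows, which held 30.9% of intergenic UMIs and 25 of 824 OR sense UMIs. Their part in the ratio was not tested. OR antisense density in scGRO–seq moved only within Exp208, to 66.4%, and was 87.6% to 94.2% with a batch left out. The log2 ratio in scGRO–seq was −0.71 to −0.56 with a batch left out. The inAGTuC sense value moved to 112% with intergenic space from 50 kb and was 78.2% to 96.0% with a library left out. Its log2 ratio was −0.60 to 0.041 with a library left out, and the sign turned without Exp234_c11. No paired analysis was possible because the labels number no replicates across assays. Batches Exp208, Exp234 and Exp261 hold libraries of scGRO–seq and inAGTuC, but of these only Exp208 is among the 10 scGRO–seq batches. It was compared within itself, and the batch entered the fits as a random block.

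AGTuC, with 2 libraries, depended on the background. OR sense and antisense density were 5.85% and 37.6% with intergenic space from 0 kb, 125% and 806% from 50 kb, and 71.4% and 465% with the space inside OR clusters. On OR bases at least 10 kb from other genes they were 13.53% and 40.1%, and the log2 ratio −1.56. With a mapping quality of at least 30 they were 49.3% and 238%, and the log2 ratio −2.30. Antisense density was 245% with shared molecules, 201% with 1 UMI per library and bin of 50 bp, 221% on OR bases outside other genes and 199% without the genes with clear reads. Chosen after seeing the data were reads of at least 30 bases (252%), weighting by end bases (219%), unique bases (226%) and genes over 200 kb from active genes (log2 ratio −1.38).

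Clear sense and antisense genes, 2 and 4, were 0 and 2 with a mapping quality of at least 30, 0 and 1 with reads of at least 30 bases and 0 and 1 with a minimum of 20 UMIs. At 5 times the intergenic density 0 sense genes were left. Antisense genes were 8 with all barcodes and 13 with shared molecules. With a batch left out they were 0 to 2 and 1 to 4. The 4 calls of sense against antisense were 2 with a minimum of 30 UMIs, 2 with a mapping quality of at least 30, 1 with reads of at least 30 bases, and 1 to 5 with a batch left out. With the UMI minimum, mapping quality and read length, 298 of 15455, 236 of 16651 and 331 of 15625 genes were called for antisense. The 18 calls of AGTuC against scGRO–seq were 1, 481, 1, 4 and 3 with a minimum of 30 UMIs, a minimum of 1 UMI, quantile normalization, a mapping quality of at least 30 and reads of at least 30 bases. Over all genes, these fits called 7093 higher and 2694 lower of 15855, 7135 and 5984 of 20120, and 4160 and 2447 of 17769. With the mapping quality they were 4991 and 3312 of 16838, and with the read length 5363 and 2614 of 16524. At a minimum of 1 UMI, 480 of 505 OR genes were called lower, where a 0 scores lower for the depth of AGTuC alone. The 12 calls of AGTuC against inAGTuC were 1, 32, 1, 4 and 3 under the same settings in that order, and 7 with the batch as a random block. Over all genes, 4678 were higher and 2458 lower of 15855, 4547 and 3773 of 20120, and 2532 and 1880 of 17769. The next were 3265 and 2866 of 16838, then 4120 and 2454 of 16524. The random block called 3346 and 2286 of 17769. With a sample left out the calls were 3 to 18 and 0 to 12. Of the OR genes, 20 were tested between assays, 505 with a minimum of 1 UMI, 1 with 30 UMIs, 5 with the mapping quality and 3 with the read length. The fits of AGTuC with 1 UMI per cell and bin were not run, since its libraries pool many cells. The cause of the other differences was not tested.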
